A study of Mus musculus with 7 samples.

Results

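The nuclear-encoded subunits of respiratory complexes II, III, IV and V, together with cytochrome c, were described in RNA from mouse brain. Members were the rows of the deposited table whose mouse gene symbol is Sdha to Sdhd, Cyc1 or Cycs, or begins with Uqcr, Cox4 to Cox8 or Atp5, without symbols marked as pseudogenes or opposite-strand transcripts. This gave 50 genes of 48526 in the table: 4 of complex II, 9 of complex III, cytochrome c, 19 of complex IV and 17 of complex V. Brain was taken at 24 months from mice that carry both Venus constructs, V1S and SV2, in a study of α-synuclein oligomers. There are 4 on libraries, labelled Glucose, and 3 off libraries, labelled Dox, the usual short form of doxycycline. All 7 share the constructs and the age, and an effect of Dox itself cannot be told apart from the off state. The sources used here give neither the promoter that drives the constructs nor the brain region. They also leave unsaid whether the libraries come from separate animals, so the p-values cover the spread among these 7 libraries, which may be partly technical.

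The respiratory chain moves electrons from metabolic substrates to oxygen and stores the energy as a proton gradient across the inner mitochondrial membrane. Complex II, succinate dehydrogenase, passes electrons from the citric acid cycle to ubiquinone. Complex III passes them from ubiquinol to the soluble carrier cytochrome c, complex IV passes them from cytochrome c to oxygen, and complex V, ATP synthase, uses the gradient to make ATP. Complex II is encoded in the nucleus alone, whereas complexes III, IV and V also need subunits encoded in mitochondrial DNA. Neurons depend on this supply of ATP for ion pumping and synaptic transmission.

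Values are regularized logarithms (rlog), a log2 scale on which DESeq2 shrinks the deviations of a gene from its own mean, so differences of low genes are understated. Depth per library is unknown. In the fit over 17896 genes with a mean of at least 3, 320 genes were lower and 146 higher in on, and the median difference of all tested genes was 0.00. Spearman's rho between a gene's deviation and its transcript length ran from 0.246 to 0.262 in on replicates 2, 3 and 4, against -0.312 to -0.210 in off. On replicate 1, at -0.0373, stood apart from its group. On the first principal component it lay at -4.10 among the off libraries (-8.64 to -3.56), against 7.19 to 9.15 in the other on libraries. All 17 genes listed as markers of neurons, astrocytes, oligodendrocytes and microglia were above the filter, with median levels of 14.63, 13.49, 14.69 and 9.81 per list.

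Most subunits were abundant, and the members were divided at a mean of 10. Of the 50 members, 48 passed the filter. A mean of 10 or more was found in 39, called abundant here, and a mean between 3 and 10 in 9. Among the 9, Atp5g2 (9.12) and Atp5s (9.24) lay close to the cut. Levels can be compared between genes only per length, so log2 of the transcript length in kilobases was subtracted from each mean. Among the 39 abundant members the median level per kilobase was 11.49 in complex II, 12.11 in complex III, 12.80 in complex IV and 12.56 in complex V. Cytochrome c lay lower, at 9.28. The top of each complex was Sdha, the flavoprotein that oxidizes succinate, at 12.55; Uqcrh, the hinge protein of complex III, at 13.32; Cox4i1, at 13.98; and Atp5b, the catalytic β subunit, at 14.50. The lowest abundant member in complex II was Sdhc, a membrane anchor, at 9.78, and in complex V it was Atp5j2, which encodes the membrane subunit f, at 10.65.

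**Figure D1:**
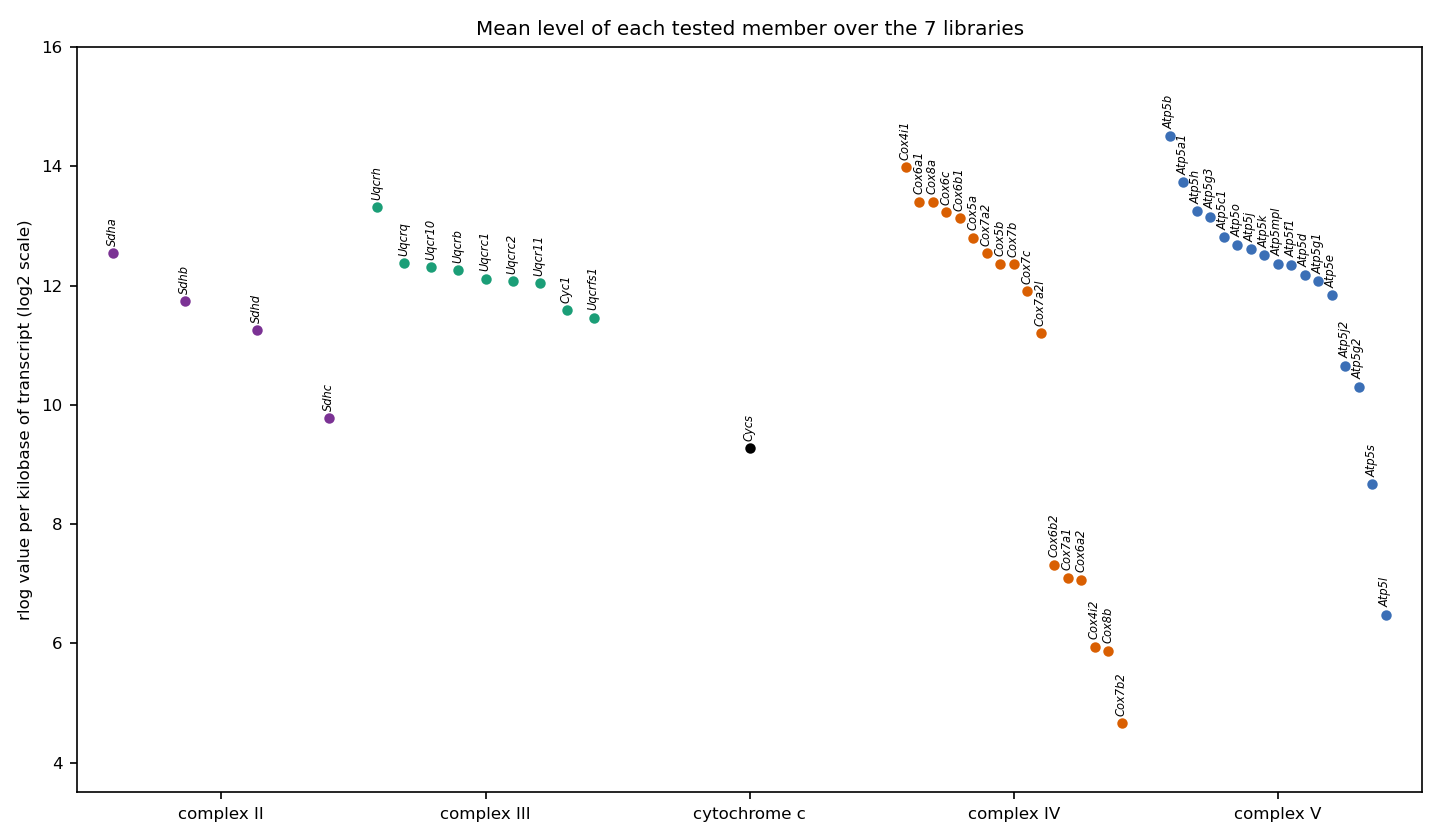
Mean rlog value per kilobase of transcript (log2 scale, vertical axis) of the 48 tested members over the 7 libraries, grouped by complex (horizontal axis) and sorted within it. Complex IV splits into members from 11.20 to 13.98 and paralogs from 4.66 to 7.32, and in complex V Atp5l lies alone at 6.48.

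The lower range of complex IV held the copies known from other tissues. Cox4i2, a paralog known from lung and vessel wall cells, had a level per kilobase of 5.94 against 13.98 for Cox4i1. Cox6a2 and Cox7a1, the heart and skeletal muscle isoforms, stood at 7.07 and 7.10, against 13.40 for Cox6a1 and 12.55 for Cox7a2. Cox8b, also a muscle isoform, stood at 5.87 against 13.40 for Cox8a, and Cox7b2 at 4.66 against 12.36 for Cox7b. Cox6b2, known from testis, stood at 7.32 against 13.13 for Cox6b1. Cox8c, a testis isoform, was listed at 0 in every library, and Cox6c2, annotated as a processed pseudogene of Cox6c, had a mean rlog value of 2.44; these were the 2 members below the filter. None of the 6 low paralogs that were tested differed between the groups past the threshold (adjusted p 0.101 to 0.971), and their differences ran from -0.12 for Cox8b to 0.00 for Cox7b2.

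Markers of the tissues that use these isoforms lay on either side of the filter in the same libraries. Of 12 striated muscle genes, 5 lay below the filter, among them Ckm, the muscle creatine kinase, at 0.72 in on and 0.72 in off, while Actn2, a muscle α-actinin, stood at 9.04 in on and 9.14 in off. The 7 tested muscle genes gave 0 calls by limma, with 1 at an unadjusted p under 0.05. The summed level of the 12 muscle genes was 9.87 to 10.03 in on and 9.99 to 10.15 in off. Actn2, with a mean of 9.08, and Myh7, with 7.97, weigh most in it, so it says little about the others. All 5 testis genes lay below the filter, with Tnp1 and Tnp2 at 0 in every library and Prm1, Prm2 and Odf1 at negative rlog values in every library. Cox6a2 is also known from parvalbumin interneurons of mouse cortex, and the 8 genes listed for those cells had a summed level of 15.73 to 15.77 in on and 15.79 to 15.86 in off. Genes with high levels weigh most in this sum, such as Gad1 with a mean of 14.34, against 12.08 for Pvalb. Pvalb itself had overlapping groups and differed by -0.06 ± 0.06 (SE, adjusted p = 0.603). With the trend with GC content and length removed, Pvalb had 0.004 ± 0.04 (SE, adjusted p = 0.97). Over the 8 genes, 6 differences were negative and 2 positive. By limma at an unadjusted p under 0.05, 3 were lower and 1 higher. The 3 lower included Tac1 (-0.17 ± 0.05, SE) and Gad1 (-0.11 ± 0.04, SE). Of the 8 genes 1, the vesicular GABA transporter gene Slc32a1, was lower in on (-0.23 ± 0.05, SE), and 7 did not pass; with the trend with GC content and length removed, Slc32a1 had -0.13 ± 0.03 (SE, adjusted p = 0.0879). Erbb4, a receptor tyrosine kinase gene of these cells, had every on library above off, as 7.13% of all tested genes did. Its difference was 0.09 ± 0.04 (SE, adjusted p = 0.219), and after the same removal it turned to -0.05 ± 0.04 (SE, adjusted p = 0.555). The 8 genes listed for pericytes and vessels, where Cox4i2 is known to be found, had a summed level of 12.92 to 13.26 in on and 12.98 to 13.15 in off, and 0 of them passed by limma. Their median difference was 0.11, with 7 of 8 positive, and the negative one, the endothelial tight junction gene Cldn5 (-0.16 ± 0.07, SE), was the 1 at an unadjusted p under 0.05. The part of these cells in the values of the isoforms was not tested.

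The comparison addresses whether expression of the subunits depends on the state of the constructs. Of the 48 tested members, 8 were lower in on and 0 higher by limma at an adjusted p under 0.05. The background was 2.6% of all tested genes called, 1.79% lower and 0.816% higher. At an unadjusted p under 0.05, 27 members were lower and 0 higher, where 10.6% of all tested genes were lower and 10% higher. The lower share was 49.3% among the 284 tested genes with a mean of at least 10 and a transcript of at most 1000 bases. The 8 were Uqcrq, Uqcrc1 and Uqcrfs1 of complex III, Cox5a and Cox6a1 of complex IV and Atp5e, Atp5g3 and Atp5g1 of complex V. The differences were small: the largest, that of Atp5e, was -0.39, and the median over the 48 members was -0.11, with 46 negative, where 48.5% of all tested genes were negative. In 16 members every on library lay below every off library, a pattern seen in 8.09% of all tested genes, and in none did every on library lie above. The shares were higher among the 284 short abundant genes, which include members. Of these, 17.6% were called lower by limma, 85.6% were negative and 28.9% had every on library below every off library. In brain tissue, fewer cells of a type and less RNA per cell cannot be told apart.

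Markers of the main brain cell types also had small differences. The 5 neuronal genes had a median difference of -0.08, with 4 negative, 2 at an unadjusted p under 0.05 and a summed level of 17.51 to 17.56 in on and 17.52 to 17.67 in off. The 4 oligodendrocyte genes, all negative, had a median of -0.06 and a summed level of 17.66 to 17.93 in on and 17.74 to 17.89 in off. The 4 microglial genes had a median of -0.09, with 3 negative, 1 at an unadjusted p under 0.05 and a summed level of 11.74 to 11.90 in on and 11.83 to 11.98 in off. The 4 astrocyte genes had a median of 0.01, with 2 negative and a summed level of 16.70 to 16.79 in on and 16.60 to 16.77 in off. By limma 0 of these 17 genes passed, the groups overlapped in all of them, and their part in the members' difference was not tested.

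The count of 8 rested on which libraries entered. Leaving out on replicate 1 gave 26 called members, and leaving out on replicate 2, 3 or 4 gave 3 each. Among the off libraries, omission of replicate 1 left 6 called members, of replicate 2 left 2 and of replicate 3 left 3. Atp5e and Atp5g3 passed in all 7 of these fits and Cox5a in 6, missing the threshold without off replicate 2 (adjusted p = 0.0627). Uqcrc1 and Uqcrq passed only without on replicate 1 or off replicate 1, and Cox6a1, Uqcrfs1 and Atp5g1 only without on replicate 1. In 38 of the 48 tested members on replicate 1 had the highest value of the 4 on libraries.

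**Figure D2:**
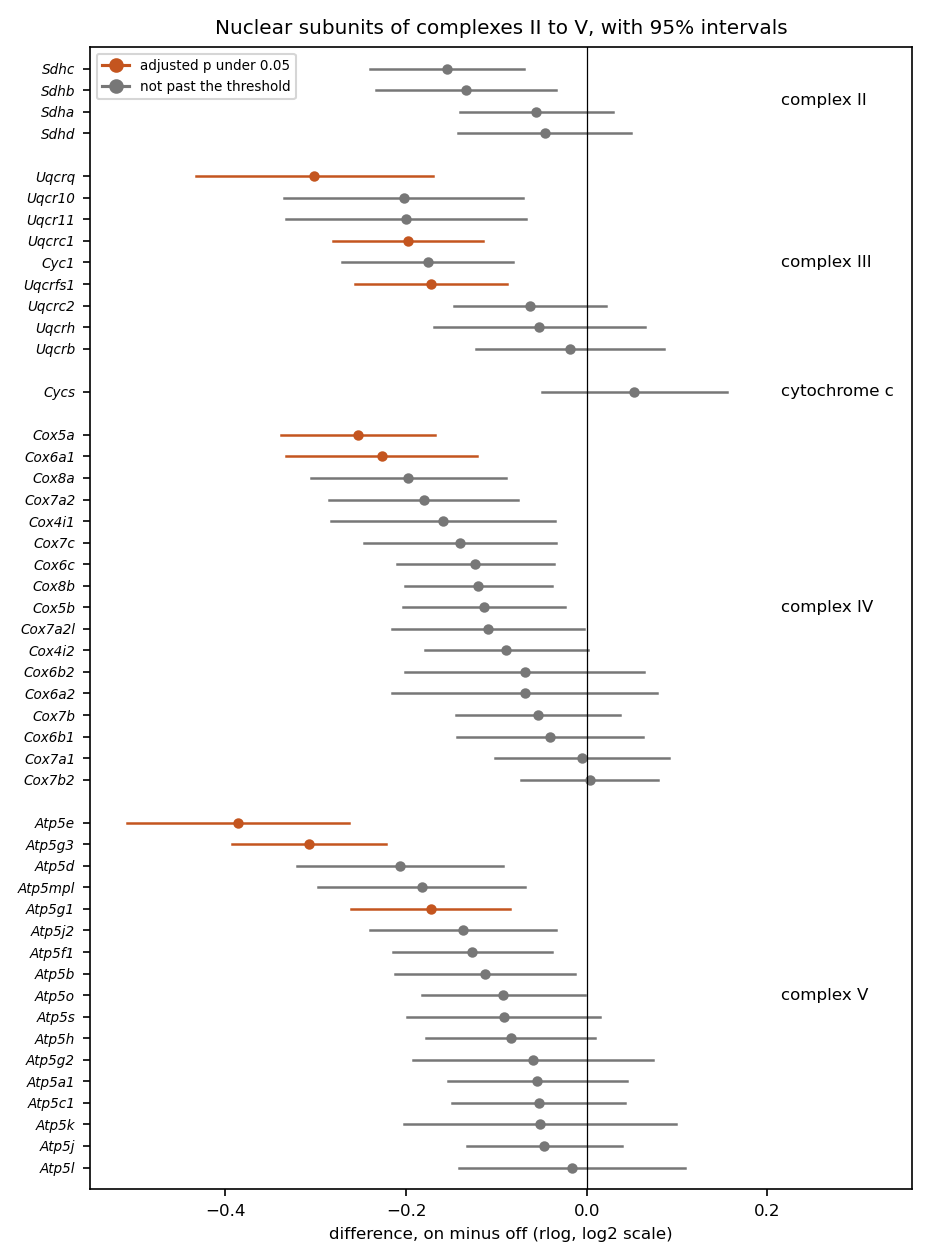
Difference between on and off (on minus off, rlog on the log2 scale, horizontal axis) of each tested member, by complex from top to bottom, with 95% intervals from limma; coloured members passed an adjusted p of 0.05. The 8 coloured members lie between -0.39 and -0.17, and Cycs (0.05) and Cox7b2 (0.00) are the members without a negative difference.

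Promoters of the called members are shown because NRF1, the ETS factor GABPA and YY1 are known regulators of respiratory genes. RefSeq promoter windows on GRCm38.p6, from 250 bases before to 50 bases after the annotated start, matched 37 of the 50 members, among them 7 of the 8 called. Not matched were Sdhc, Cyc1, Uqcrb, Uqcrc2, Uqcrq, Cox4i1, Cox4i2, Cox6a2, Cox6c, Cox6c2, Cox8c, Atp5a1 and Atp5mpl. Searched on both strands, the NRF1 consensus, with 1 free position, occurred in 10 of the 37 members matched and in 5.19% of all 27025 genes with a window. The ETS motif CCGGAAG occurred in 12 of the 37 (32.4%) and in 9.93% of all genes, and the YY1 consensus in 1 of the 37 and in 0.995% of all genes. Over the 17492 protein-coding genes with a window, the shares were higher: 7.17% for NRF1, 12.9% for ETS and 1.41% for YY1. Of the 7 called members 3 held the NRF1 motif and 2 the ETS motif. Stretches of 150 bases around the start of 4 called members follow, 5′ to 3′ on the gene's strand, with motif matches in capitals, which do not overlap in these stretches. Atp5g3 lies at chr2:73911302-73911451 (minus strand), Atp5e at chr2:174464077-174464226 (minus), Cox6a1 at chr5:115348934-115349083 (minus) and Cox5a at chr9:57521107-57521256 (plus). Atp5g3 holds an NRF1 match just after its start, Atp5e an ETS match, Cox6a1 an NRF1 and an ETS match, and Cox5a holds none of these letters in this stretch.
Atp5g3: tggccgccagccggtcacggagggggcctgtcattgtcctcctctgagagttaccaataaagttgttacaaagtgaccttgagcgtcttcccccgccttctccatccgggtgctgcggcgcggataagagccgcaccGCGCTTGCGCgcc
Atp5e: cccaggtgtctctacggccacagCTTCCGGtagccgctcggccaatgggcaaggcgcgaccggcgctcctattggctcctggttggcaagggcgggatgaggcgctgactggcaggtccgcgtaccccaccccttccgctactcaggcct
Cox6a1: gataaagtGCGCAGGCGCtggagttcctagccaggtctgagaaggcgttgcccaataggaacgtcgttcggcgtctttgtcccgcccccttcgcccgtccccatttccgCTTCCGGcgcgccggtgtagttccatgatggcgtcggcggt
Cox5a: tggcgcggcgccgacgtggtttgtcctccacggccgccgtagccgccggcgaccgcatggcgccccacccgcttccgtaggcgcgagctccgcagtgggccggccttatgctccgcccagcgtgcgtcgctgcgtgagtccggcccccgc

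In complex II 0 of the 4 subunits passed by limma, with 2 at an unadjusted p under 0.05 and a median difference of -0.09. Sdhc, which anchors the enzyme in the membrane and helps bind ubiquinone, came nearest: its rlog values were 11.44, 11.33, 11.40 and 11.32 in on and 11.55, 11.51 and 11.52 in off. All 4 on libraries lay below the 3 off libraries, and the difference of -0.15 ± 0.04 (SE) missed the threshold (adjusted p = 0.0552). Sdhb, the iron-sulfur subunit, differed by -0.13 ± 0.05 (SE, adjusted p = 0.128). Sdha and the second anchor, Sdhd, differed by -0.06 ± 0.04 and -0.05 ± 0.04 (SE), with groups that overlapped. Genes for enzymes of the citric acid cycle, of which complex II is also a part, gave 0 calls by limma among 13, with 2 at an unadjusted p under 0.05, a median of -0.04 and 12 negative. The largest negative values there were those of the fumarase gene Fh1 (-0.14 ± 0.04, SE, adjusted p = 0.0767) and of Idh3g, a subunit of isocitrate dehydrogenase (-0.13 ± 0.04, SE, adjusted p = 0.0749).

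Complex III had a median difference of -0.18 over 9 subunits, of which 3 passed lower and 6 did not; with the trend with GC content and length removed, the median was -0.04 and 0 passed by limma. Uqcrq encodes a small subunit of the membrane arm. Its values were 11.11, 10.92, 10.83 and 10.89 in on and 11.13, 11.32 and 11.27 in off. On replicate 1 lay close below off replicate 1, and the difference was -0.30 ± 0.06 (SE, adjusted p = 0.025). Uqcrc1, a core protein on the matrix side, was measured at 12.83, 12.71, 12.75 and 12.72 in on and 12.93, 12.97 and 12.95 in off. Here the gap between the groups was wider than the spread within off, and the difference was -0.20 ± 0.04 (SE, adjusted p = 0.0215). Its partner Uqcrc2 differed by -0.06 ± 0.04 (SE, adjusted p = 0.388), with overlapping groups. Whether the 2 core proteins differ from each other in this respect was not tested.

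The redox subunits of complex III stood on either side of the threshold. Uqcrfs1, the Rieske iron-sulfur protein, had values of 11.88, 11.84, 11.86 and 11.77 in on and 12.02, 12.05 and 11.96 in off. The groups did not overlap, and the difference was -0.17 ± 0.04 (SE, adjusted p = 0.0369). Cyc1, cytochrome c1, which hands electrons to cytochrome c, had a difference of about the same size, -0.18 ± 0.04 (SE), and just missed the threshold (adjusted p = 0.0509). Of the other small subunits, Uqcr10 and Uqcr11 both differed by -0.20 ± 0.06 (SE, adjusted p = 0.093 and 0.0978), while Uqcrh (-0.05) and Uqcrb (-0.02) lay near 0.

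Cycs, the somatic cytochrome c, was the member with the highest difference. It was measured at 10.94, 10.84, 11.03 and 10.95 in on and at 10.88, 10.95 and 10.84 in off. The groups overlapped, and the difference was 0.05 ± 0.05 (SE, adjusted p = 0.567), with a 95% interval from -0.05 to 0.15. Of its transcript, 28.2% of the stretches of 50 bases also occur in transcripts of other annotated genes, so its value is uncertain.

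Complex IV had 17 tested members, with a median of -0.11, of which 2 passed lower and 15 did not. Cox5a, a nuclear subunit on the matrix side, had values of 12.05, 12.13, 12.02 and 12.04 in on and 12.34, 12.34 and 12.26 in off. Of the 8 called members it is the one in which on replicate 1 did not have the highest on value, and the groups did not overlap. The difference was -0.25 ± 0.04 (SE, adjusted p = 0.0077). Read as a log2 ratio of the shrunken values, before any trend removal, this equals 16.1% less in on. Cox6a1, the isoform of subunit VIa found in most tissues, had values of 12.64, 12.44, 12.50 and 12.43 in on and 12.70, 12.78 and 12.69 in off. On replicate 1 lay nearer to off than to the other on libraries, and the difference was -0.23 ± 0.05 (SE, adjusted p = 0.0309).

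The other abundant subunits of complex IV were negative and did not pass. Cox8a (-0.20 ± 0.05, SE, adjusted p = 0.0547), Cox7a2 (-0.18 ± 0.05, SE, adjusted p = 0.0644) and Cox6c (-0.12 ± 0.04, SE, adjusted p = 0.111) had on libraries that all lay below off. Cox4i1, which takes part in the regulation of the enzyme by ATP, had values of 13.66, 13.35, 13.52 and 13.43 in on and 13.66, 13.68 and 13.61 in off. Its on libraries spread widely, and the difference was -0.16 ± 0.06 (SE, adjusted p = 0.143). Cox7c (-0.14), Cox5b (-0.11) and Cox7a2l (-0.11), the last a factor that joins complexes III and IV into supercomplexes, lay in the middle of the range. Cox7b (-0.05) and Cox6b1 (-0.04) were closest to 0 among the abundant members of this complex. The rule leaves out Ndufa4, named for complex I and now counted as a subunit of complex IV, which was lower in on by -0.17 ± 0.04 (SE, adjusted p = 0.0463); with the trend with GC content and length removed it had -0.10 ± 0.03 (SE, adjusted p = 0.0995). Usmg5, a subunit of complex V that the rule also leaves out, differed by -0.11 ± 0.04 (SE, adjusted p = 0.151) and did not pass. After the same removal Usmg5 had 0.02 ± 0.03 (SE, adjusted p = 0.809). Ndufa4 and Usmg5 were looked up after other values had been seen.

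In complex V all 17 members were negative, with a median of -0.09; 3 passed lower and 14 did not. The α and β subunits form the catalytic head, and neither passed: Atp5a1 (α) differed by -0.05 ± 0.05 and Atp5b (β) by -0.11 ± 0.05 (SE, adjusted p = 0.535 and 0.191). In the central stalk, Atp5c1 (γ) differed by -0.05 ± 0.04 (SE, adjusted p = 0.534). Atp5e encodes the small ε subunit of this stalk and had the most negative difference of all members. Its values were 10.60, 10.39, 10.40 and 10.31 in on and 10.77, 10.83 and 10.84 in off. On replicate 1 was the highest of the on libraries and still lay below all 3 off libraries. The difference was -0.39 ± 0.06 (SE, adjusted p = 0.00511). As a log2 ratio of the shrunken values, before any trend removal, this equals a difference of -23.454% in on. Atp5d, the δ subunit of the same stalk, differed by -0.21 ± 0.05 (SE, adjusted p = 0.0549).

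The membrane ring of ATP synthase is built from subunit c, and mammals have 3 genes, Atp5g1, Atp5g2 and Atp5g3, that encode the same mature protein behind different import sequences. Atp5g3 had the highest level per kilobase of the 3, at 13.15, against 12.07 for Atp5g1 and 10.30 for Atp5g2. This order is uncertain, since Atp5g3 shares no stretch of 50 bases with other annotated genes, Atp5g1 shares 66.0% and Atp5g2 shares all. Its values were 12.62, 12.54, 12.51 and 12.48 in on and 12.86, 12.85 and 12.82 in off. The groups did not overlap and the off libraries lay close together, with a difference of -0.31 ± 0.04 (SE, adjusted p = 0.00179). Atp5g1 had values of 11.31, 11.27, 11.24 and 11.17 in on and 11.41, 11.46 and 11.40 in off, and differed by -0.17 ± 0.04 (SE, adjusted p = 0.0441). Atp5g2 had values of 9.20, 8.94, 9.04 and 9.19 in on and 9.15, 9.17 and 9.14 in off. Its groups overlapped, with a difference of -0.06 ± 0.06 (SE, adjusted p = 0.627), and whether the 3 genes differ from each other was not tested.

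Subunits of the peripheral stalk, which holds the head still, did not pass. Atp5f1 (subunit b) differed by -0.13, Atp5o (the oligomycin sensitivity protein) by -0.09, Atp5h (subunit d) by -0.08 and Atp5j (factor 6) by -0.05. Small membrane subunits ranged from -0.18 for Atp5mpl and -0.14 for Atp5j2 to -0.05 for Atp5k and -0.02 for Atp5l. Atp5s, a coupling factor that is not a structural subunit of the enzyme, differed by -0.09 ± 0.05 (SE, adjusted p = 0.316).

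**Figure D3:**
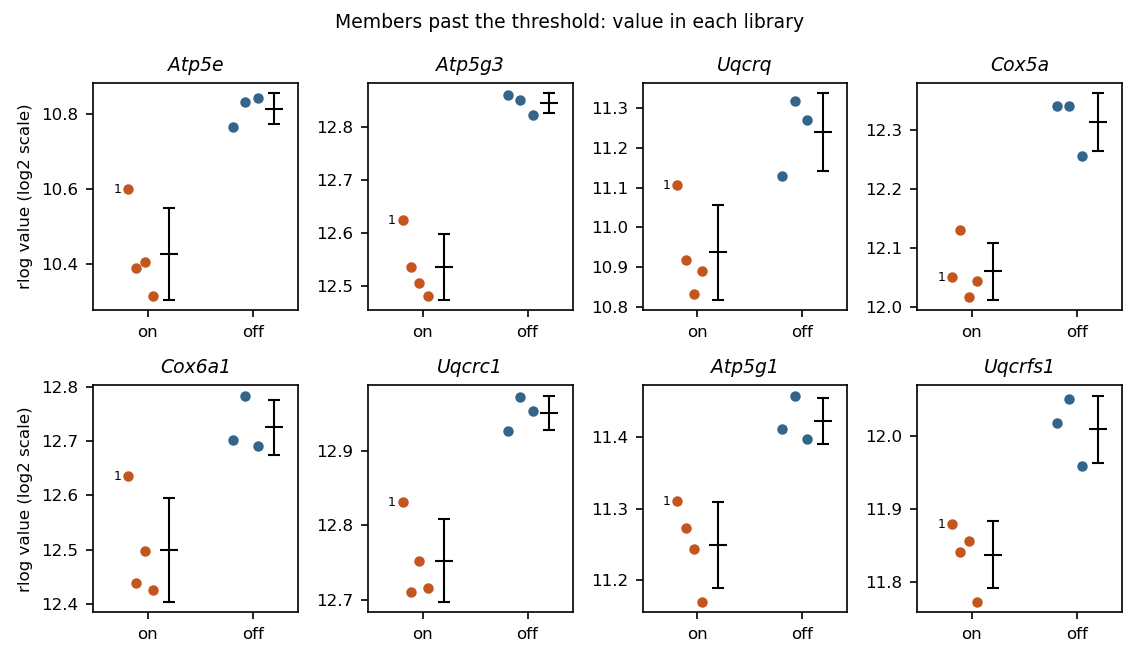
Rlog value (log2 scale, vertical axis, a separate range in each panel) of the 8 members past the threshold in the 4 on and 3 off libraries; the 1 marks on replicate 1, and bars give the group mean and SD. On lies below off in every panel, from 10.31 to 10.60 against 10.77 to 10.84 in Atp5e, and on replicate 1 is the highest on library in all panels but Cox5a.

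Several members share sequence with processed copies elsewhere in the genome, and their values are uncertain. In 24 of the 50 members some stretch of 50 bases of the transcript also occurs in the transcript of another annotated gene, and in 11 at least 20% of the stretches do. Among the called members the share was 66.0% in Atp5g1, 12.3% in Cox6a1 and 3.36% in Cox5a, while Atp5g3, Atp5e, Uqcrq, Uqcrc1 and Uqcrfs1 shared none. Atp5g2 shared all of its stretches. Atp5l, subunit g of ATP synthase, had rlog values of 5.48 to 5.72 in on and 5.52 to 5.66 in off, under all other members of complex V, and shared 68.5% of its stretches with 13 genes, 12 of them pseudogenes. The sources used here do not say how reads with several matches were counted. The kit marks strand, but whether counting used it is also unsaid, and 12.8% of the exon bases of Cox5a and 35.6% of those of Atp5o overlap exons of genes on the opposite strand. The other 7 called members had no such overlap.

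The subunits encoded in mitochondrial DNA that could be tested had differences at or above 0, and neither passed. Of the 6 such subunits of complexes III to V, mt-Cytb, cytochrome b of complex III, had values of 18.33, 18.31, 18.27 and 18.30 in on and 18.20, 18.19 and 18.07 in off. All 4 on libraries lay above off, where 7.13% of all tested genes do, and the difference of 0.14 ± 0.06 (SE, adjusted p = 0.184) did not pass. With the trend with GC content and length removed, mt-Cytb had 0.18 ± 0.04 (SE) and just missed the threshold (adjusted p = 0.0539). The catalytic core of complex IV, mt-Co1, differed by 0.01 ± 0.07 (SE, adjusted p = 0.963), and by 0.04 ± 0.04 (SE, adjusted p = 0.689) after that removal. The other 4, mt-Co2, mt-Co3, mt-Atp6 and mt-Atp8, had mean rlog values of -1.51 to -0.28 in on and -1.51 to -0.28 in off, below the filter, and could not be compared. Of these, mt-Co2 and mt-Co3 belong to complex IV together with mt-Co1, which stood at 19.30 in on and 19.29 in off, and mt-Atp6 and mt-Atp8 belong to complex V.

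Factors that assemble the complexes were mostly negative as well. Of 37 listed assembly factors of complexes II to V, 36 were tested, 4 were lower in on, 0 higher and 32 did not pass by limma, with a median of -0.08, 33 negative, and 12 with every on library below off (background 8.09%). The 4 were Cox14 (-0.25 ± 0.05, SE), Sco2, a copper chaperone of complex IV (-0.25 ± 0.05), Fmc1, needed for ATP synthase assembly (-0.24 ± 0.06), and Uqcc2, a complex III assembly factor (-0.23 ± 0.06). With the trend with GC content and length removed 0 of the 36 passed by limma, and the 4 had adjusted p of 0.0768 to 0.355. Atpif1, the inhibitor of ATP hydrolysis by complex V, differed by -0.13 ± 0.04 (SE, adjusted p = 0.13). Nuclear genes of complex I, 37 by symbol with Ndufa4 among them, gave 10 lower and 0 higher, with a median of -0.13 and 36 negative; after the same removal 1 passed lower and the median was -0.04. Of 12 regulators of respiratory genes, 8 were positive and the median was 0.06; 1 passed, the orphan nuclear receptor gene Esrra, which was lower in on (-0.23 ± 0.05, SE, adjusted p = 0.025) and had -0.12 ± 0.03 (SE, adjusted p = 0.127) after that removal. The coactivator gene Ppargc1a differed by 0.06 ± 0.04 (SE, adjusted p = 0.436), Nrf1 by 0.07 ± 0.05 (SE, adjusted p = 0.47) and Gabpa by 0.15 ± 0.06 (SE, adjusted p = 0.171).

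**Figure D4:**
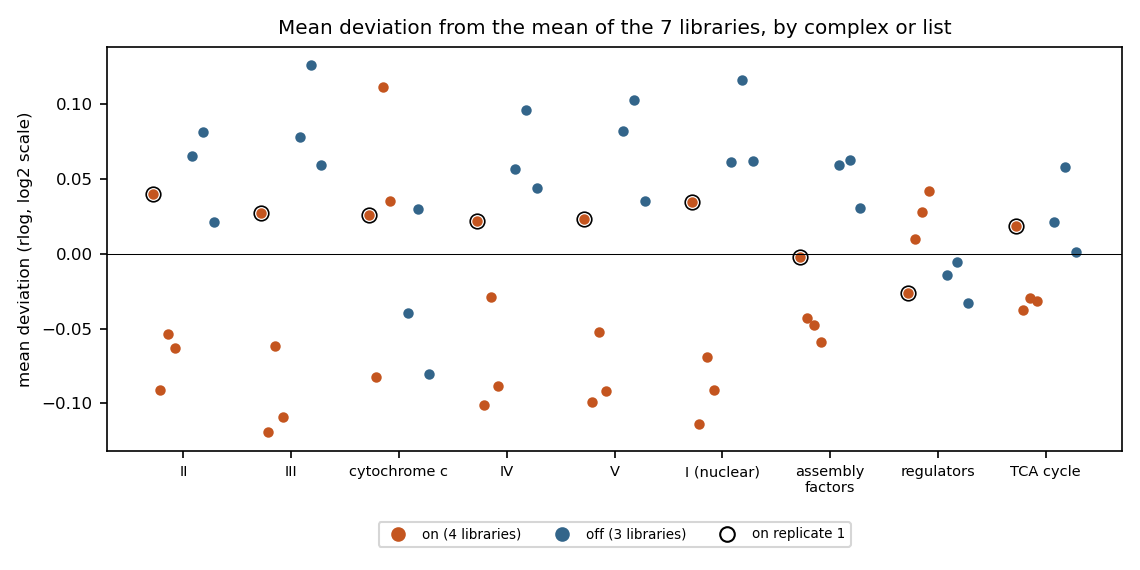
Mean deviation from each gene's mean over the 7 libraries (rlog, log2 scale, vertical axis) of the tested genes of each complex or list (horizontal axis), with 1 point per library; the ringed point is on replicate 1. In complexes III, IV and V and in complex I all on libraries lie below all off libraries, with on replicate 1 at 0.02 to 0.03, between the other on libraries and off. The assembly factors have the same order, with on replicate 1 at -0.0024. Complex II, cytochrome c, the TCA cycle and the regulators do not follow it.

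Averaged by library, complexes III and V had the same order of groups. In complex III the mean deviation was 0.03, -0.12, -0.06 and -0.11 in on replicates 1 to 4 and 0.08, 0.13 and 0.06 in off replicates 1 to 3. In complex V it was 0.02, -0.10, -0.05 and -0.09 in on and 0.08, 0.10 and 0.04 in off. Complex II differed in that on replicate 1 (0.04) lay above off replicate 3 (0.02). The members share libraries, so these means describe the libraries and carry no test.

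The members are short genes, and short abundant genes as a class were called lower more often than all genes. The tested members had a median transcript length of 697 bases, against 2672 bases for all tested genes, and a median GC content of 50.8%, against 50.2%. Of the 284 tested genes with a mean of at least 10 and a transcript of at most 1000 bases, 17.6% were called lower, 28.9% had every on library below every off library and 85.6% had a negative difference, with a median of -0.10. These 284 include the members of that level and length, while the 39 members below are of any length. Among the 39 members with a mean of at least 10, 8 were called lower and 14 had every on library below every off library, with a median of -0.13; over all 7053 genes with such a mean these shares were 2.65% and 9.49%. Over these 39 members, which share the 7 libraries, the difference had a Pearson r of 0.409 and a Spearman rho of 0.318 with log2 length, and of -0.526 and -0.501 with GC content. The 13 shortest (366 to 596 bases) had a median of -0.18, the 13 in the middle (618 to 1076 bases) of -0.11 and the 13 longest (1142 to 3171 bases) of -0.11.

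When a smooth trend with GC content and transcript length was removed from each library, Atp5e (-0.23 ± 0.04, SE, adjusted p = 0.0204) and Atp5g3 (-0.23 ± 0.03, SE, adjusted p = 0.0043) passed and the other 6 called members did not, against a background of 0.275% of genes called lower. Cox5a then had -0.17 ± 0.04 (SE, adjusted p = 0.0706), Uqcrfs1 -0.13 ± 0.03 (SE, adjusted p = 0.0694) and Uqcrc1 -0.11 ± 0.02 (SE, adjusted p = 0.0741). Uqcrq had -0.12 ± 0.04, Cox6a1 -0.07 ± 0.03 and Atp5g1 -0.04 ± 0.04 (SE, adjusted p 0.194 to 0.614). The median over the 48 members was then -0.05, with 38 negative, where 52.1% of all genes were negative. By complex the median became -0.05 in II, -0.04 in III, -0.05 in IV and -0.04 in V. A trend that is technical and a change that falls on short genes cannot be told apart in this design.

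**Figure D5:**
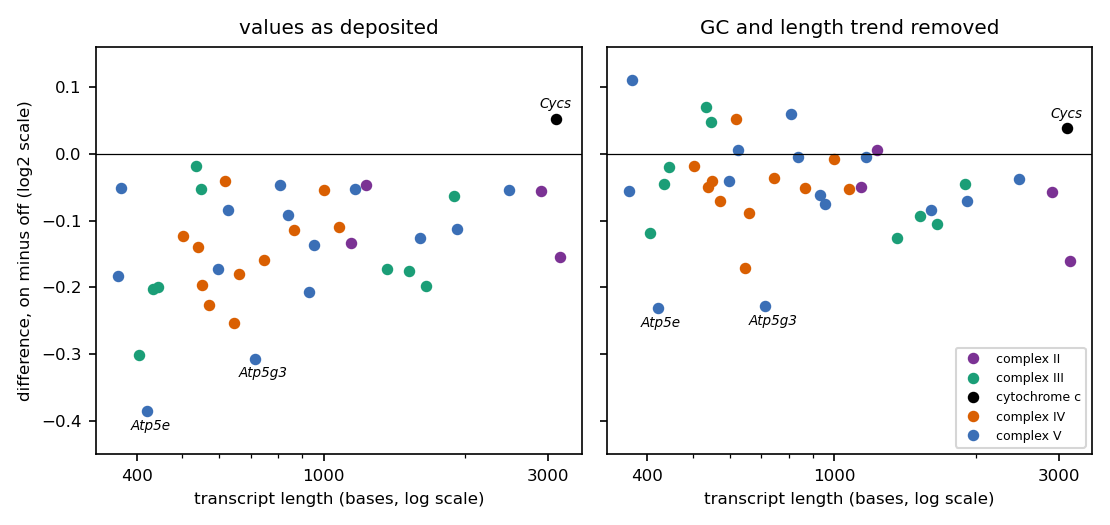
Difference between on and off (on minus off, log2 scale, vertical axis) against transcript length (bases, log axis) for the 39 members with a mean of at least 10, as deposited on the left and after removal of the trend with GC content and length on the right. The median over all tested members was -0.11 before and -0.05 after removal, and Atp5e and Atp5g3 stay lowest at -0.23.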

How the data were processed

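Brain RNA was sequenced as 7 libraries, 4 on and 3 off. The authors deposited rlog values (log2 scale) of 48526 Ensembl genes in a single table. Per the labels' protocols, a Qiagen miRNeasy kit with DNase gave the RNA and an Illumina TruSeq Stranded mRNA kit the libraries. The submitters' processing notes list DESeq2 1.16.1, Subread 1.5.3, STAR 2.5.2, BWA 0.7.14-r1136, cutadapt 1.9.1 and the build GRCm38, without their roles or settings. Depth is unknown.

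Symbols were found for 48058 genes. Genes with a mean of at least 3 entered a linear model in limma 3.58.1 (R 4.3.3, group term, intensity trend, two-sided, Benjamini-Hochberg over all 17896 genes, threshold 0.05), a method tested on simulated data. Errors of differences are moderated SE. Lengths, GC content and shared stretches of 50 bases came from GENCODE M21 (GRCm38), with the shortest best-supported principal transcript per gene, and smooth trends were fitted per library by mgcv 1.9.3, separately for 3 classes of mean value, and subtracted. Members and lists were chosen with earlier results of these data known. The rule for named genes took the called members, the largest difference per complex, paralogs, redox and catalytic subunits, members below the filter, the mitochondrial partners and called genes of the lists; other genes were named after their values were seen. Alternatives were other filters, scalings, variance models, weights, a replicate block, a threshold of 0.1, trend removal and each library left out.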

Additional observations from a re-analysis of the deposited data

Results flagged for a closer look

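Among 54 sets of the 4 on values tested for a library far from the others, 2 were singled out, where chance singles out about 1 in 20. In Sdha, on replicate 1 lay at 14.13 and the other on libraries between 14.03 and 14.04. In Cox4i2, on replicate 1 lay at 5.41 and the other on libraries at 5.46. The off group has 3 libraries and was not tested this way.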

How the results depend on the processing

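Of all tested genes 466 passed, and 8 members. With array weights 2215 genes and 25 members passed. A threshold of 0.1 gave 1182 and 16. Dropping the intensity trend gave 237 and 4, and removal of the GC and length trend 74 and 2. Without a filter on low values limma called 7 genes and 0 members, with 25 members at an unadjusted p under 0.05. With the trend removed and without on replicate 1, 1964 genes and 9 members passed, 5 of them among the 8. Leaving out each library in turn gave 43 to 2917 genes and 2 to 26 members; the highest counts came without on replicate 1 and the lowest without off replicate 2. With the replicate block 30 genes and 1 member passed. Same-numbered libraries had correlations of -0.23, -0.10 and 0.02, and differently numbered ones of -0.19 to 0.30. So few correlations cannot tell whether the numbers pair the libraries. A minimum mean of 5, median centring, quantile normalization and a robust prior gave 9, 7, 10 and 11 members. The cause of these changes was not tested.

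Signs turned only in members that had not passed. Removing the trend gave 0.0051 in Sdhd, 0.069 in Uqcrb, 0.048 in Uqcrh, 0.052 in Cox6b1, 0.020 in Cox7a1, -0.022 in Cox7b2, 0.040 in Atp5g2, 0.0060 in Atp5h, 0.060 in Atp5j and 0.11 in Atp5k. Removing it without on replicate 1 gave 0.11 in Uqcrb, 0.041 in Uqcrh, 0.048 in Cox6b1, 0.0033 in Cox7a1, -0.035 in Cox7b2, 0.024 in Atp5g2, 0.00898 in Atp5h, 0.079 in Atp5j, 0.11 in Atp5k and 0.020 in Atp5l. Cox7a1 was at 0.0016 with median centring and 0.000338 with the replicate block, and Atp5l at 0.023 with array weights. With 1 library left out, Uqcrb ran from -0.064 to 0.015, Atp5l from -0.062 to 0.024, Atp5k from -0.10 to 0.015, Cox7a1 from -0.024 to 0.0071 and Cox7b2 from -0.026 to 0.020. Unknown depth sets no floor for low members.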
